A study of Nothobranchius furzeri and Iconisemion striatum and Callopanchax occidentalis with 18 samples.

Results

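MicroRNAs of whole Nothobranchius furzeri embryos in diapause were compared with those of embryos of the same species that were not in diapause. All embryos carried the label of the somite stage, at which the trunk is being segmented. The comparison used every N. furzeri library of the series, 8 of 18 libraries, grouped by the label for diapause into 5 in diapause and 3 not in diapause. Diapause replicate 1 was of strain MZM0403 and was sequenced in lane 1. Diapause replicate 2 was of strain MZM0410, also in lane 1, and the labels used here give no length of diapause for either. Diapause replicate 3 was of strain MZM0410, in pool 3, after 2 weeks of diapause. Diapause replicate 4 was of GRZ x MZZW, in pool 3, after 1 month, and diapause replicate 5 was of GRZ x MZZW, in pool 2, after 2 months. The 3 libraries not in diapause shared strain MZM0410 and pool 3. Strain MZM0403, GRZ x MZZW, lane 1 and pool 2 were therefore present in diapause only, and for the libraries that carry them diapause cannot be told apart from strain or run. Diapause replicate 3 was the single diapause library that shared strain and run with the embryos not in diapause.

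Annual killifish inhabit seasonal ponds, and their embryos survive the dry season in the soil by entering diapause, in which development and cell division pause and metabolism slows. A microRNA is a short RNA cut from a hairpin precursor. Either arm of the hairpin, named 5p or 3p, can be loaded into the silencing complex, where it pairs with messenger RNAs and lowers their translation and stability. Because many microRNAs are made in 1 tissue or at 1 stage, the set found in a whole embryo reflects both its cell types and its stage. In such bulk samples, fewer cells of a type and less RNA per cell cannot be told apart.

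The table listed 291 mature miRNAs, of which 272 had a count in at least 1 of the 8 libraries and 172 in all 8. Counts on miRNAs totalled between 579183 and 4103430 per diapause library and between 1285872 and 4177400 per library not in diapause. A count of 0 allows up to 3 counts, which corresponded to 0.718 to 5.18 RPM (counts scaled to the library total) depending on the library, and this limit covers counting error only. The share of 18 to 33 nt reads that was counted on miRNAs was 51.2%, 3.02%, 11.7%, 77.3% and 13.1% in diapause replicates 1 to 5, and 21.2%, 32.8% and 33.05% in the other libraries. The diapause values lay on both sides of the others (31.3% ± 31.7 (SD, n = 5) against 29.03% ± 6.76 (SD, n = 3), two-sided exact permutation p = 0.946). Nothing in the labels ties the libraries to separate clutches, and p-values therefore reflect only the spread between these samples, part of which may be technical.

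The sets of marker miRNAs looked up in these whole embryos had counts in every library, except that of red blood cells, with 0 in diapause replicate 5. Some markers had few counts in several libraries. Those of the Hox clusters (miR-10 and miR-196) gave between 407443 and 3800776 counts per library. Of these, miR-196a-5p had between 522 and 2255 counts, and the other miR-196 entries had 0 or 1. miR-430, of a teleost family known for clearing maternal transcripts, gave between 35954 and 301601 counts. The muscle markers miR-1, miR-133, miR-206 and miR-499 gave between 68 and 667 counts. The neural markers miR-9 and miR-124 gave between 61 counts (diapause replicate 2) and 8994 counts (diapause replicate 1). Of these, miR-124-3p had between 1 and 48 counts. The liver marker miR-122 gave between 4 and 28 counts, and the red blood cell markers miR-144 and miR-451 between 0 and 95. miR-451 was at 0 in diapause replicates 3 to 5 and in replicates 2 and 3 of the embryos not in diapause.

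A few miRNAs filled most of every library. miR-10b-5p, encoded within the Hox clusters that pattern the body axis, took 57.3%, 61.0%, 69.9%, 74.9% and 69.8% of counts in diapause replicates 1 to 5 and 69.2%, 56.5% and 63.0% in the others. The groups overlapped, with means of 66.6% ± 7.20 (SD, n = 5) and 62.9% ± 6.35 (SD, n = 3), and they did not differ beyond their spread (two-sided exact permutation p = 0.446, where 56 splits allow no p below 0.0179). miR-10d-5p of the same clusters followed with 8.66% to 16.6% in diapause and 7.80% to 13.3% outside it. miR-10c-5p took 2.14%, 0.483%, 0.559%, 1.03% and 1.23% against 0.862%, 0.152% and 0.282%, with overlapping groups. The effective number of miRNAs, which is the number of equally abundant miRNAs that would give the same diversity, was 4.39 ± 1.61 (SD, n = 5) in diapause and 4.63 ± 0.68 (SD, n = 3) outside it (two-sided exact permutation p = 0.857). Thinned to the 579183 counts of the smallest library, the libraries held 198 ± 20.8 (SD, n = 5) and 196.1 ± 4.64 (SD, n = 3) miRNAs (two-sided exact permutation p = 0.893). Diapause replicate 1 held the most, 224, and diapause replicate 4 the fewest, 167.

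**Figure D1:**
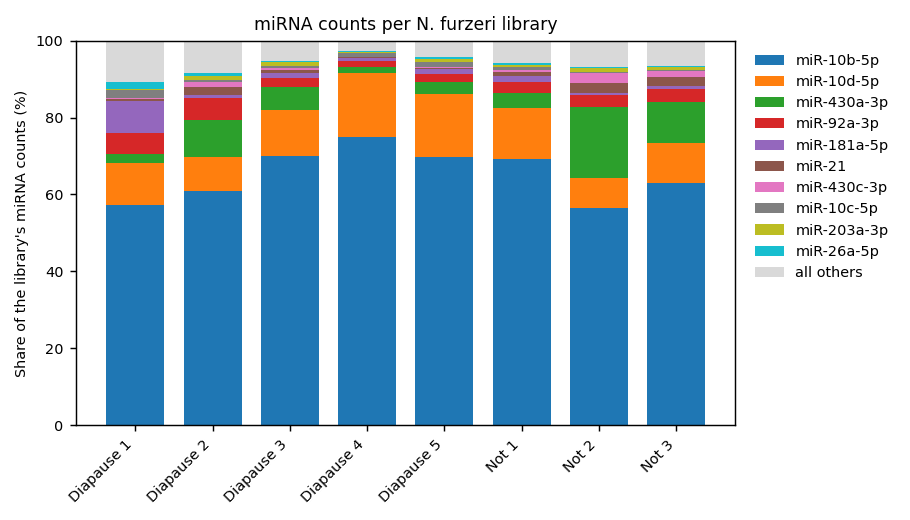
Share of miRNA counts (%, vertical axis) in each of the 8 libraries (horizontal axis), stacked for the 10 miRNAs with the highest mean share and all others in grey. miR-10b-5p fills between 56.5% and 74.9% of every library, and miR-181a-5p stands out in diapause replicate 1 with 8.32%.

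Diapause replicate 1 stood apart from all other libraries. In it, 7 miRNAs of at least 10 CPM exceeded 4 times their highest value elsewhere, and no other library had such a miRNA. In the other direction, 3 miRNAs in diapause replicate 5 were more than 4 times below every other library. So was 1 each in diapause replicate 2 and in replicates 2 and 3 outside diapause, and 0 in diapause replicate 1. Values here and below are CPM, library-scaled counts, after TMM scaling, which sets libraries to a common level over most miRNAs. In diapause replicate 1, miR-9-7-3p was at 2162 CPM, 245 times the highest of the other 7 libraries (8.82 CPM). miR-9-5p, of the miR-9 family of neural progenitors, was at 1276 CPM, against 64.2 to 247 CPM in the others. Both tested miR-9 miRNAs were thus high in this library. Of the miR-9 entries that were not tested, miR-9-3p had 163 counts in it and 0 to 9 in the others. miR-9-4-3p had 0 counts in it and 9 in diapause replicate 3. The neuronal list outside miR-9 had 26 members, of which 6 were tested. Those 6 summed to 686 CPM in this library, within the range of the others (319 to 1143 CPM). Most of that sum was miR-128-3p, at 413.8 CPM. Of the other tested members, miR-153a-3p (130.11 CPM), miR-138-5p (56.43 CPM) and miR-129-5p were highest in this library. miR-128-3p, miR-218a and miR-219-5p were not. The listed miR-124-3p was not tested, and it had 48 counts in this library and 1 to 21 in the others. Among the 7, several miRNAs known to increase as cells differentiate were also high, which did not hold for all members of their families. miR-125a was at 559 CPM against at most 31.5 CPM, and miR-125b-5p at 147 CPM against at most 32.4 CPM. let-7d-5p, of a family that restrains proliferation genes, was at 210.5 CPM against at most 27.03 CPM. Of the same family, let-7a, let-7g, let-7i and let-7j were also highest in this library, but let-7e and let-7h were not. let-7e was at 93.27 CPM, against 121.64 CPM in replicate 2 outside diapause. miR-100-5p, listed with miR-125, was higher in diapause replicate 3. miR-181c-5p and miR-199-3p were at 137.2 and 326 CPM, against at most 9.51 and 79.3 CPM. This library was the single one of strain MZM0403, so for these values strain cannot be told apart from the library itself. The correlation across miRNAs of log2 CPM between diapause libraries ranged from 0.845 to 0.967 over 10 pairs, and from 0.911 to 0.967 over the 6 pairs without this library. It ranged from 0.938 to 0.981 over the 3 pairs outside diapause and from 0.813 to 0.977 over the 15 pairs between groups, so libraries of different groups were in part as alike as libraries of 1 group. All pairs share the same few abundant miRNAs.

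**Figure D2:**
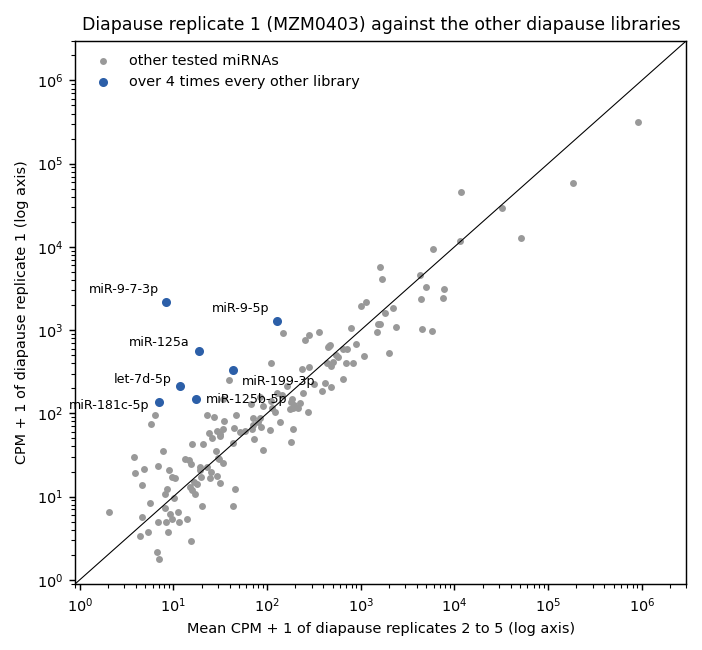
CPM + 1 of each of the 161 tested miRNAs in diapause replicate 1 (vertical log axis) against the mean of diapause replicates 2 to 5 (horizontal log axis), with the line of equality. The 7 labelled miRNAs, all above the line, exceed 4 times every other library, led by miR-9-7-3p at 2162 CPM.

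In edgeR's quasi-likelihood test of 161 miRNAs, 0 (0%) passed at a Benjamini-Hochberg adjusted p under 0.05. At an unadjusted p under 0.05 there were 24 (14.9%), 13 higher (8.07%) and 11 lower (6.83%) in diapause. DESeq2 called 4 (2.48% of the 161) after adjustment and had 32 unadjusted. Those 4 were miR-29a and miR-210-3p, higher in diapause, and miR-200a-5p and miR-1388-3p, lower in it. DESeq2 gave no p-value for miR-9-7-3p, miR-125a, miR-181c-5p, let-7d-5p, let-7g and miR-125b-1-3p. Among the diapause libraries, replicate 1 was the highest for each of these. With each library left out in turn edgeR also called 0, and the count at an unadjusted p under 0.05 was 24 without diapause replicate 1, 34 without diapause replicate 2, and 10 when either replicate 2 or replicate 3 outside diapause was dropped. The groups did not overlap for 8 miRNAs higher in diapause (4.97%) and 6 lower (3.73%). With library totals in place of TMM scaling, 7 did not overlap, 5 of them among those 14. The median log2 fold change over all miRNAs tested was 0.14, with 91 positive and 70 negative. The 95% interval lay within a factor of 2 either way (log2 between -1 and 1) for 15 miRNAs and reached beyond a factor of 4 (log2 of -2 or 2) for 66. The comparison therefore bounded the difference closely for few miRNAs, and the absence of a call did not show that the other miRNAs were equal.

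**Figure D3:**
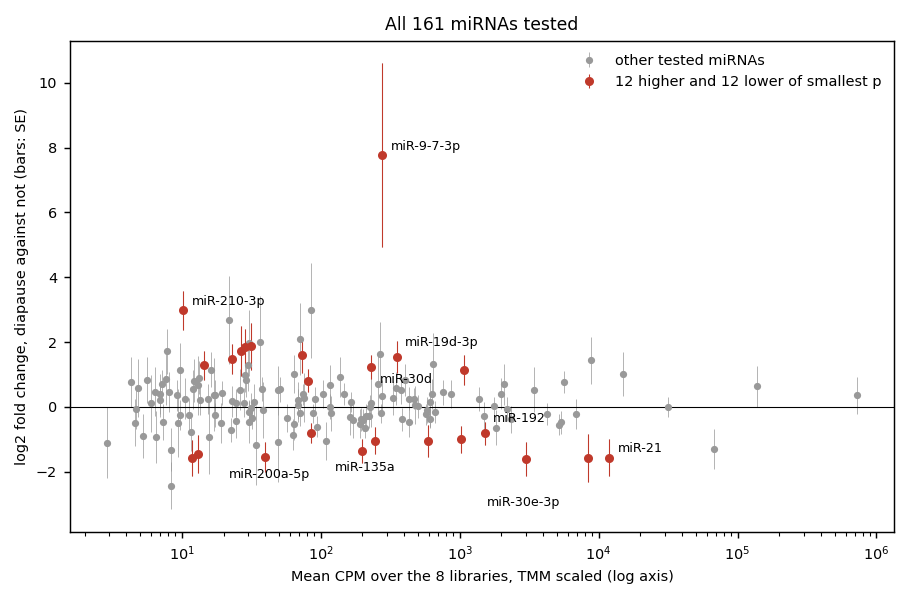
Log2 fold change of diapause against not in diapause (vertical axis, bars are standard errors) against mean CPM over the 8 libraries (horizontal log axis) for the 161 tested miRNAs. The 12 higher and 12 lower miRNAs of smallest p, in red, reach 7.77 for miR-9-7-3p, which rests on diapause replicate 1, and -1.61 for miR-30e-3p.

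The miRNAs described next are the 12 higher and 12 lower in diapause with the smallest p among those averaging at least 10 CPM. They were picked by p, so their fold changes are a description of these libraries. Adjusted p-values of edgeR's quasi-likelihood test with Benjamini-Hochberg adjustment ran from 0.0980 to 0.329 for the higher and from 0.210 to 0.346 for the lower. All 24 kept their sign in each of the 16 to 19 settings in which they could be fitted. These settings refit the libraries by which the 24 were picked, so kept signs were likely beforehand and are no separate support. Of the 12 higher, diapause replicate 1 was the highest diapause library in 10, and replicate 1 of the embryos not in diapause was the highest of its group in 10. Without diapause replicate 1, 9 of the 12 higher and 10 of the 12 lower had an unadjusted p under 0.05, against 12 and 10 with it. The libraries that remained had also taken part in the picking. Diapause replicate 3 shared strain and run with the other group. It lay above that group's 3 libraries for 10 of the 12 higher miRNAs and below them for 8 of the 12 lower. The fit that picked these miRNAs included this library and those 3, so such agreement is partly built in and is no separate support. For none of these positions of single libraries was the share over all miRNAs tested counted. Those counts, for replicate 1 of either group as for diapause replicate 3, are therefore not read as a result about the 24 miRNAs.

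miR-210-3p is the miRNA best known for induction by low oxygen, through the HIF transcription factors, and for lowering mitochondrial respiration. It had 69, 15, 22, 26 and 8 counts in diapause replicates 1 to 5 and 9, 2 and 5 counts in the others, or 27.04, 18.9, 9.49, 13.7 and 7.21 CPM against 2.15, 1.59 and 1.81 CPM. Every diapause library was above every other library, and the longest labelled diapause, replicate 5, was the lowest of its group. Its mean over all libraries, 10.24 CPM, passed the floor of 10 CPM only through the diapause libraries. These averaged 15.27 CPM, against 1.85 CPM outside diapause. The lack of overlap is therefore a description of these libraries and no separate support. The log2 fold change was 2.98 (SE 0.60) with all libraries, 2.72 within strain MZM0410, 2.67 within pool 3 and 2.21 for diapause replicate 3 alone against the 3 others, which assumes that this lone library varies like the rest. With so few counts outside diapause, the size of the fold is uncertain.

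miR-30d, of a family found in many epithelia and in kidney, was at 359, 210.3, 193, 350.2 and 359 CPM in diapause and at 163, 102.6 and 107.6 CPM outside it. The groups did not overlap with TMM scaling but did with library totals, and the libraries of strain MZM0410 were the lowest of the diapause group. This gave a log2 fold change of 1.24 (SE 0.37), and 0.62 within strain MZM0410. The other tested members lay on both sides of 0, with miR-30b at 0.39 (SE 0.33), miR-30e-5p at 0.14 (SE 0.75) and miR-30c-5p at -0.23 (SE 0.33). miR-30e-3p, the opposite arm of another member, was at 531, 1839, 2800, 2177 and 1163 CPM in diapause and at 2752, 7444 and 5368 CPM outside it. Diapause replicate 3 lay just above the lowest of the others, so the groups overlapped with TMM scaling, but they did not with library totals. The difference was -1.61 on the log2 scale (SE 0.52), and -0.99 within pool 3.

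miR-15b-5p, of the miR-15 and miR-16 family that represses cyclins and other cell cycle genes, was at 154, 41.6, 68.6, 100.9 and 123 CPM in diapause and at 54.2, 22.3 and 19.1 CPM outside it. Diapause replicate 2 lay below the highest of the others. Its log2 fold change was 1.61 (SE 0.55), and 0.72 within strain MZM0410. The 3 other members of the family that were tested had negative values, among them miR-16b (-0.17, SE 0.35) and miR-16a (-0.39, SE 0.35).

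miR-126a-3p, a miRNA of endothelial cells needed for vessel integrity in zebrafish, was at 80.3, 34.01, 15.5, 37.5 and 48.6 CPM in diapause and at 23.2, 2.39 and 9.02 CPM outside it, where replicate 2 had 3 counts. The groups overlapped through diapause replicate 3. A log2 fold change of 1.86 (SE 0.73) resulted, with 0.88 within strain MZM0410 and 0.26 for diapause replicate 3 alone against the 3 others. The more abundant opposite arm, miR-126a-5p, had a negative value (-0.41, SE 0.34). Of the related hairpin, miR-126b-5p was at -0.38 (SE 0.36) and miR-126b-3p at 0.66 (SE 0.63). miR-130b was at 122.3, 73.1, 77.7, 116 and 92.8 CPM against 68.3, 45.3 and 50.9 CPM. Its groups did not overlap with TMM scaling but did with library totals, and its log2 fold change was 0.81 (SE 0.35), and 0.38 within strain MZM0410.

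miR-216b, made in the pancreas, was at 93.7, 34.01, 13.8, 9.51 and 30.6 CPM in diapause and at 17.2, 7.16 and 7.94 CPM outside it. Diapause replicate 1 was far above the rest and the groups overlapped. The log2 fold change of 1.73 (SE 0.77) became 0.96 without that library and 0.14 within pool 3. miR-9-7-3p depended still more on it: the value of 7.77 (SE 2.84) became 1.86 without it, where it had 7, 12, 15 and 8 counts in diapause and 15, 2 and 1 outside it. Members of the miR-19 and miR-29 families made up the other 5 of the 12 higher miRNAs.

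miR-135a, a miRNA of the nervous system that also acts on Wnt signalling, had the smallest p of the lower miRNAs. It was at 76.8, 108, 123, 121 and 189 CPM in diapause and at 288, 233 and 439 CPM outside it. Every diapause library was below every other library, also with library totals. This was a log2 fold change of -1.37 (SE 0.37, edgeR quasi-likelihood test with Benjamini-Hochberg adjusted p = 0.210), and it lay between -1.57 and -1.11 in all 19 settings, with -1.54 within strain MZM0410 and -1.31 within pool 3. The related miR-135b-5p, of similar abundance, was at 0.13 (SE 0.75), with an interval of -1.54 to 1.81. For it, diapause replicates 4 and 5 lay above every library outside diapause, and replicates 1 and 2 below every one.

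miR-21, which is raised in regenerating and growing tissues, was the most abundant of the 12 lower miRNAs. It was at 3134, 14043, 9024, 3868 and 4016 CPM in diapause and at 10142, 28684 and 21988 CPM outside it. Diapause replicate 2 overlapped the others, and GRZ x MZZW and MZM0403 had the lowest values. Its log2 fold change was -1.57 (SE 0.57), -0.88 within strain MZM0410 and -1.61 within pool 3.

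miR-200a-5p comes from a hairpin whose other arm, miR-200a-3p, marks epithelia and represses the ZEB factors. It was at 18.8, 42.8, 23.7, 18.5 and 11.7 CPM in diapause and at 41.5, 71.6 and 87.0 CPM outside it. Diapause replicate 2 alone lay above the lowest of the others. The log2 fold change was -1.54 (SE 0.46), and DESeq2 called it (-1.56, DESeq2 adjusted p = 0.0366). Its partner miR-200a-3p was at 0.15 (SE 0.30), with a 95% interval of -0.51 to 0.81.

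miR-1388-5p, of a hairpin known from fish, had 7, 6, 20, 19 and 5 counts in diapause and 39, 38 and 60 outside it. The difference was -1.59 on the log2 scale (SE 0.55), and -1.01 within pool 3, with overlap through diapause replicate 4 in CPM. The opposite arm, miR-1388-3p, had 6, 5, 6, 9 and 0 counts against 35, 32 and 49. It averaged under 10 CPM and was chosen after its values were seen, as a call of DESeq2 (-2.43, DESeq2 adjusted p = 0.0366). Its groups did not overlap with TMM scaling but did with library totals, and with 0 to 9 counts in diapause the size of its fold is uncertain.

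miR-192, of liver, gut and kidney, was at 1961, 1362, 958, 869 and 816 CPM in diapause and at 2349, 1980 and 1976 CPM outside it. The groups did not overlap, though diapause replicate 1 lay just under the others, and with library totals they overlapped. The log2 fold change was -0.82 (SE 0.36), -1.07 without diapause replicate 1 and -0.53 with library totals. miR-18c, of a cluster related to miR-17-92 that promotes proliferation, was at 47.8, 88.2, 67.3, 72.4 and 55.8 CPM against 119, 118 and 110.5 CPM, with no overlap under TMM scaling, overlap with library totals and a log2 fold change of -0.81 (SE 0.32). The related miR-18a was at -0.15, with an interval of -0.96 to 0.66.

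miR-222a-5p was at 403, 1189, 817, 820 and 477 CPM in diapause and at 1042, 1901 and 1526 CPM outside it. The groups overlapped through diapause replicate 2, and the difference was -1.01 on the log2 scale (SE 0.40), and -0.64 within strain MZM0410. The opposite arm, miR-222a-3p, was at -0.64 (SE 0.53). The family of miR-221 and miR-222 represses the cell cycle inhibitor p27 in mammals, which was not examined here for either arm. miR-190a was at -1.45 (SE 0.58), and -0.80 within pool 3, and rests on 3 to 28 counts in diapause and 44 to 55 outside it. These counts were 4.31, 8.82, 12.1, 11.1 and 2.70 CPM in diapause and 10.5, 35.0 and 19.9 CPM outside it. The groups therefore overlapped with TMM scaling, and they also did with library totals. miR-92a-5p was at -1.05 (SE 0.49), and -0.57 within strain MZM0410, while the opposite and far more abundant arm miR-92a-3p was at -0.01, with an interval of -0.72 to 0.71. Both other lower miRNAs belonged to the miR-430 family.

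**Figure D4:**
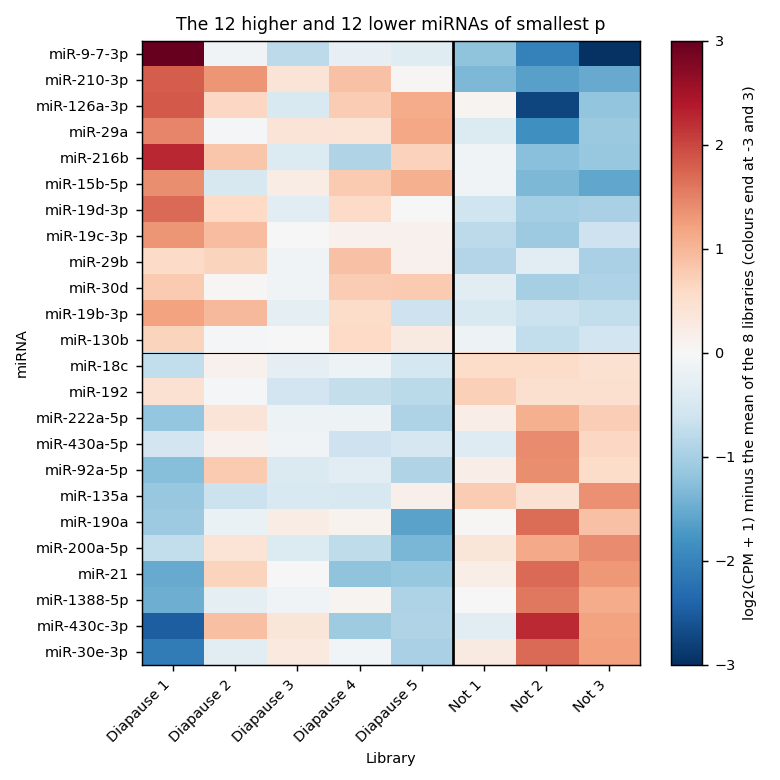
Log2(CPM + 1) minus its mean over the 8 libraries (colour) for the 12 higher and 12 lower miRNAs of smallest p (rows, ordered by fold change) in each library (columns, diapause left of the line). Red marks libraries above the mean: diapause replicate 1 is the highest diapause library for 10 of the 12 higher miRNAs, and replicate 1 of the embryos not in diapause is the closest of its group to diapause in most rows.

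The 15 miRNAs whose interval lay within a factor of 2 belonged to many families. They included miR-92a-3p, which averaged 31385 ± 6261 CPM (SD, n = 5) in diapause and 31536 ± 1815 CPM (SD, n = 3) outside it. miR-27b-3p, of a cluster active in blood vessels, stood at 1772 ± 371 CPM against 1755 ± 263 CPM (0.01 on the log2 scale, interval -0.66 to 0.69). miR-204-5p, of the lens and the pigment epithelium, averaged 504 ± 152.5 CPM against 500 ± 71.3 CPM. miR-196a-5p of the Hox clusters and miR-140-3p of cartilage were also among them, at -0.10 and -0.20.

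The lists of families and tissue miRNAs are described by the counts of their members, beside 91 of 161 positive and a median of 0.14 over all miRNAs tested. Over all miRNAs, 89 of 162 were positive without diapause replicate 1, 85 of 171 within strain MZM0410 and 82 of 167 within pool 3. The counts given for those settings are read beside these. Strain MZM0410 includes diapause replicate 2 of lane 1, and pool 3 includes diapause replicate 4 of GRZ x MZZW. No member of any list passed the edgeR test after adjustment. Among tissue lists, the 5 muscle miRNAs tested all had positive values (median 0.54, and 0.63 without diapause replicate 1). Within strain MZM0410, 4 of 5 were positive, and within pool 3, 5 of 5. miR-133a-3p, known in cardiac and skeletal muscle, was at 88.6, 16.4, 33.2, 12.1 and 42.3 CPM against 28.9, 3.98 and 14.1 CPM, with overlapping groups (1.28, SE 0.78), and miR-206-3p of skeletal muscle was at 0.05 (SE 0.51). The vascular list had 10 of 13 positive (median 0.54, and 0.58 without diapause replicate 1), with 8 of 13 positive and a median of 0.12 within strain MZM0410. Within pool 3, 10 of 13 were positive, with a median of 0.56.

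The skin miRNAs miR-203 and miR-205 had 4 of 4 negative (median -0.51), with 3 of 4 negative without diapause replicate 1 and 2 of 4 within strain MZM0410. Within pool 3, 3 of 4 were negative. miR-205-5p averaged lower in diapause (-0.55, SE 0.32), and miR-203a-3p was at -0.21 (SE 0.47). The epithelial list had 4 of 5 positive (median 0.25), and 4 of 7 both within strain MZM0410 and within pool 3. The neuronal list outside miR-9 had 4 of 6 positive with a median of 0.08, 4 of 8 positive within strain MZM0410 and 2 of 8 within pool 3. Its most abundant member, miR-128-3p, ranged from 172 to 995 CPM in diapause and from 293 to 811 CPM outside it. The blood list had 4 of 5 negative (median -0.26), 3 of 5 without diapause replicate 1 and 3 of 7 within strain MZM0410, where its median was 0.09. Within pool 3, the blood list had 4 of 6 negative. Its most abundant member, miR-146a, which dampens inflammatory signalling in mammals, was at -0.38 (SE 0.41).

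The list of liver, gut and pancreas miRNAs had 6 of 7 positive (median 0.40), although miR-192, which gives most of its counts, was lower. Within strain MZM0410, 2 of 7 were positive, and within pool 3, 4 of 7. miR-375, of endocrine pancreas and gut, was at 0.34 (SE 0.50). The fish cluster of miR-462 and miR-731, known in fish for its response to hypoxia and to viruses, had both members negative. This held also without diapause replicate 1, within strain MZM0410 and within pool 3. miR-462 was at 210.1, 146.1, 167, 191 and 136.9 CPM in diapause and at 225, 362 and 222.7 CPM outside it. The groups did not overlap, and the log2 fold change was -0.66 (SE 0.31). With library totals the groups overlapped.

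Several family lists had medians that turned with the libraries included. let-7, which accumulates as cells differentiate, had 5 of 7 positive (median 0.58) with all libraries and 1 of 6 positive (median -0.51) without diapause replicate 1. let-7a was at 925, 91.9, 301.2, 119 and 75.7 CPM in diapause and at 71.1, 300.5 and 182.3 CPM outside it. The list of miR-99, miR-100 and miR-125 had 5 of 6 positive and a median of 1.22. This became 0.22 without diapause replicate 1, -0.28 within strain MZM0410 and 0.18 within pool 3. miR-100-5p was at 1046, 91.9, 2478, 362.9 and 191.9 CPM against 259, 251 and 497 CPM, so it was high in diapause replicates 1 and 3 and below all of the other libraries in replicates 2 and 5. The miR-181 list had 4 of 4 positive (median 0.71) with all libraries and 4 of 4 negative (median -0.27) within strain MZM0410. Within pool 3, 4 of 4 were positive (median 0.50). For diapause replicate 3 alone against the 3 others, its most abundant members miR-181a-5p and miR-181b-5p were at 0.29 and 0.01. The cartilage and mesenchyme list had a median of 0.35, and -0.10 without diapause replicate 1. The sensory cluster of miR-182 and miR-183 had a median of 0.81. This became 0.28 without diapause replicate 1, -0.46 within strain MZM0410 and 0.60 within pool 3.

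The miR-17-92 list without miR-19 had 12 of 12 negative (median -0.35), among them miR-92a-3p at -0.01 and miR-92b-3p at -0.06. It had 10 of 12 negative without diapause replicate 1 and with library totals. With the size factors of DESeq2, 11 of 12 were negative, and 9 of 13 both within strain MZM0410 and within pool 3. The miR-221 and miR-222 list had 3 of 3 negative (median -0.64), among them miR-221-3p near 0 with an interval of -0.80 to 0.79. It had 2 of 3 negative without diapause replicate 1, with library totals and within strain MZM0410, where the median was -0.17. Within pool 3, 3 of 3 were negative. miR-103 and miR-107a-3p, linked to lipid and glucose metabolism in mammals, were at -0.38 (SE 0.28) and -0.61 (SE 0.32). The p53 list had no tested member.

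**Figure D5:**
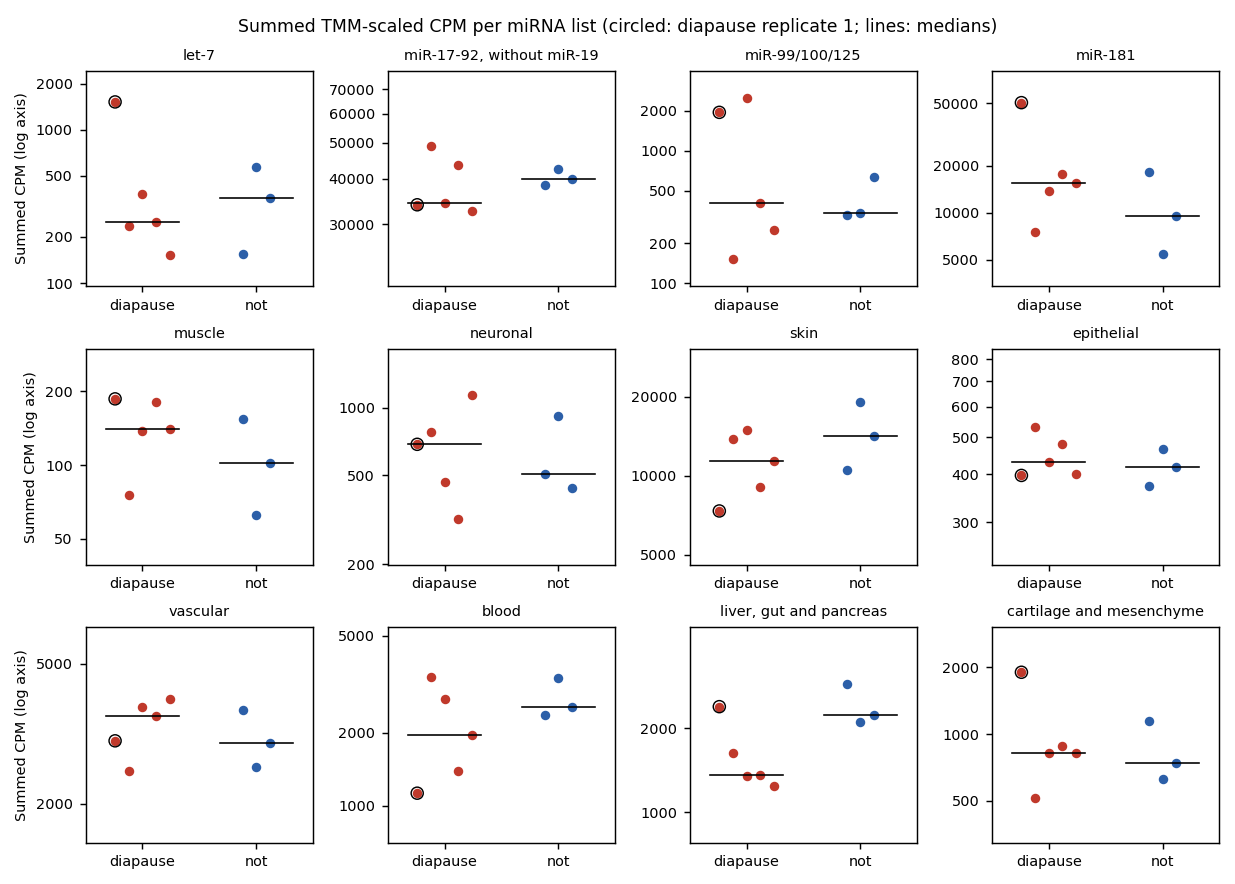
Summed TMM-scaled CPM of the tested members (vertical log axis) of 12 lists in each diapause library (red) and each library not in diapause (blue), with the median of each group as a line and diapause replicate 1 circled. Diapause replicate 1 lies far above the other diapause libraries for let-7 and miR-181, and the groups overlap in every list shown.

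The arms of a hairpin were compared as the log2 ratio of 5p to 3p counts within each library, which does not depend on how libraries are scaled. Of 75 hairpins with both arms in the table, 20 had at least 10 counts on average in each arm. limma called 2 (10%) at an adjusted p under 0.05, and 7 (35%) had an unadjusted p under 0.05, 6 of them with a lower ratio in diapause. With a median of at least 10 counts in each arm, a filter chosen after seeing the data that 1 library cannot satisfy alone, 0 of 18 were called.

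The miR-126a hairpin had at least 164 counts of the 5p arm and 27 of the 3p arm in every diapause library, and 1187, 215 and 740 of the 5p arm against 97, 3 and 25 of the 3p arm outside it. Its log2 ratio was 0.64, 2.58, 3.56, 1.91 and 2.33 in diapause and 3.61, 5.94 and 4.86 outside it, so every diapause library was below the others, diapause replicate 3 narrowly. The difference was -2.60 (SE 0.71, limma adjusted p = 0.0431, and 0.0713 with the filter on the median). It was also not called without diapause replicate 1, 4 or 5, without any 1 of the libraries not in diapause, within strain MZM0410 (-1.73) or within pool 3 (-2.07). The 5p arms of miR-126a and miR-126b had nearly equal counts in all libraries (mean log2 ratio 0.07, SD 0.10), so the reads of both may be shared and this ratio is uncertain.

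The miR-9 hairpin was the other of the 2. Its 3p arm had 163, 0, 2, 5 and 9 counts in diapause and 1, 0 and 1 outside it, so it passed the filter on the mean through diapause replicate 1 alone. In the libraries with 0 to 2 counts of this arm the ratio is set largely by the 5p count and the pseudocount of 0.5, and nothing is read from its call. The miR-200a hairpin came next (-1.72, SE 0.53, limma adjusted p = 0.0562), through the lower 5p arm described above.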

How the data were processed

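Total RNA of whole embryos was turned into small RNA libraries with a TruSeq kit, per the labels' protocols. The submitters' processing notes name Bowtie 1.0.0 and 1.1.2, CASAVA 1.8.2 and bcl2fastq 1.8.3. Which miRNA sequences served as reference, and how reads with several matches were treated, is not given in the sources used here. The deposited table holds raw counts for each mature miRNA and RPM values, which the authors scaled so that they equalled the counts divided by the library total. The counts were used. The run of each library comes from its name in the deposited table. A total line that names no miRNA and 2 columns matching no sample were left out. Read totals of 18 to 33 nt came from the deposited table of reads.

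In R 4.3.3, edgeR 4.0.16 was run on the 8 libraries with the filterByExpr filter, TMM factors and its quasi-likelihood test, and p-values were adjusted after Benjamini-Hochberg over all miRNAs tested and a threshold of 0.05. limma 3.58.1 tested arm ratios with a pseudocount of 0.5 on counts, and DESeq2 1.42.0 was an alternative. Values of 1 number per library had two-sided exact permutation tests. Scripts were tested on simulated data. Named miRNAs were the 12 higher and 12 lower of smallest p averaging at least 10 CPM, the 10 most abundant, the 2 most abundant of each list other than the miR-430, miR-19, miR-101 and miR-29 lists, and hairpins whose arm ratio passed. The members, lists and rules were chosen with earlier results of these data known. Alternatives covered scaling, filters, strain, run and each library left out. No sequences or genomic positions were used here.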

Additional observations from a re-analysis of the deposited data

Results flagged for a closer look

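Among 77 values screened, 10 had a diapause library far from the other 4. The cutoff flags about 1 in 20 of independent, normally distributed values, which CPM values need not be. In 8 of the 10, the library was diapause replicate 1. In that library miR-9-7-3p was at 2162 CPM (5.18 to 8.82 CPM in the other 4), miR-9-5p at 1276 (64.2 to 247), miR-125a at 559 (9.01 to 31.5), miR-181a-5p at 45392 (6158 to 15063), let-7a at 925 (75.7 to 301.2), let-7g at 250.4 (28.5 to 50.4), miR-143 at 866 (210.3 to 360) and miR-19d-3p at 951.5 (236 to 442). In diapause replicate 2, miR-30e-5p was at 1807 CPM (134 to 585) and miR-222a-3p at 3597 CPM (627 to 1282). That library had 579183 counts, the fewest of the 8, and 3.02% of its 18 to 33 nt reads were counted on miRNAs. The part of depth, strain or run in these values was not tested.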

How the results depend on the processing

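edgeR's count of 0 adjusted calls held in every alternative fitted with it, and DESeq2's Wald test gave 4. The 24 of 161 miRNAs at an unadjusted edgeR p under 0.05 became 10 of 161 with library totals only. They became 12 of 161 with strain as a covariate and 13 of 161 with run as a covariate. Other strains and runs were present in diapause only. The difference in these fits therefore rests on the libraries of strain MZM0410 or of pool 3, and the rest add only to the estimate of spread. Within strain MZM0410 there were 11 of 171, within pool 3 there were 25 of 167, and with a mean of at least 50 CPM 15 of 94. The count was 27 of 161 with the size factors of DESeq2 and 29 of 161 with TMM without the 10 most abundant miRNAs. Without a filter on low counts it was 30 of 272. Leaving out each library in turn gave 10 to 34, with 10 when replicate 2 or 3 outside diapause was dropped. The 2 arm ratios called became 0 with at least 100 counts per arm, within strain MZM0410, within pool 3 and with a median of at least 10 counts per arm (chosen after seeing the data), and 0 to 3 with each library left out, 0 without diapause replicate 1, 4 or 5 or any library not in diapause. The difference in effective number of miRNAs, -0.241, became 0.00377 within strain MZM0410, -1.43 within pool 3 (exact permutation p = 0.2) and 4.01 without the miR-10 family (exact permutation p = 0.196), and ranged from -0.789 to 0.194 with each library left out. That in the share of the most abundant miRNA, 3.67 percentage points, became 9.49 within pool 3 and ranged from 0.464 (without replicate 2 outside diapause) to 6.81. The difference in miRNAs detected, 1.70, became -12.3 within pool 3 and ranged from -4.74 to 9.40. The difference in reads counted on miRNAs, 2.25 percentage points, became -21.7 within strain MZM0410 (exact permutation p = 0.1, the smallest possible) and ranged from -9.27 to 9.31. The cause was not tested. Over all miRNAs the median log2 fold change lay between 0.10 and 0.20 under the scalings tried. It became -0.09 with run as a covariate and -0.06 within pool 3. Within strain MZM0410 and pool 3, an alternative chosen after seeing the data, it was -0.11. The 95% intervals reached a median of 0.977 either side of the estimate (log2) for the 73 miRNAs averaging at least 100 CPM and 1.28 for the other 88. No paired analysis was possible because the labels give no replicate numbers.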
